A study of Homo sapiens with 6 samples.

Results

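The regions described here carried H3K4me2 in all 3 conditions of the experiment, but their point of highest signal, the summit, stood in another place in vehicle-treated cells than after the LSD1 inhibitor. LNCaP, an androgen-responsive prostate cancer (PCa) cell line, was kept in charcoal-stripped serum, which is depleted of hormones, and H3K4me2 was then measured by ChIP-seq. The vehicle group was given vehicle without GSK2879552. The 4 h and 24 h groups (GSK 4 h and GSK 24 h) were labelled as given DHT, an androgen, with GSK2879552 for 4 or 24 h, while the treatment protocol names GSK2879552 alone. Effects of the androgen and of the inhibitor cannot be told apart between vehicle and GSK here. Each group had 2 samples, which the authors combined into 1 peak list, so no value has a replicate error and no difference between conditions could be tested. The model is a single cell line, and its marker genes were not analysed here, since gene positions of that build were not used.

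The records of the 3 lists on chromosomes 1 to 22 merged into 147111 union regions. Of these, 52329 held exactly 1 record of each list, and in 51206 of them the vehicle record was shorter than 1500 bp. These are called matched regions. A region was chosen when its vehicle summit lay 150 bp or more from the GSK 4 h summit and also 150 bp or more from the GSK 24 h summit. This was so for 7326 regions, which made up 14.3% of the matched regions and 4.98% of the union regions. The distances between the vehicle summit and the GSK summits therefore chose the regions, and they are given below as a description only.

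H3K4me2 is dimethylated lysine 4 of histone H3, a mark of enhancers and of the ground around active promoters. LSD1 (KDM1A), the enzyme that GSK2879552 blocks, removes methyl groups from mono- and dimethylated H3K4. At an active regulatory site the DNA bound by transcription factors is poor in nucleosomes, and the marked nucleosomes lie on both of its flanks. One peak record can thus cover several marked nucleosomes, and the summit is the position where most fragments overlap. The DNA sequence and the nearest genes of these regions were not analysed here, since the files use hg19 and no genome of that build was used.

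The precision of a summit depends on how many fragments cover it. The number of fragments at each summit (the pileup) was recovered from the authors' fold enrichment and -log10 p-value. The lists rested on 8.98 to 10.1 tags per kb of effective genome, and the fragment length, read from the shortest record, was 221 bp (vehicle), 186 bp (GSK 4 h) and 219 bp (GSK 24 h). The median vehicle summit of the chosen regions had 28 overlapping fragments, for which counting error alone allows 18.6 to 40.5 (exact Poisson 95% interval). The medians for GSK 4 h and GSK 24 h were 33 and 30 fragments. About 1 region in 3 was weaker still, as 34.2% of the chosen regions had fewer than 20 vehicle fragments, against 35.8% of all matched regions.

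The summits of the chosen regions were usually displaced by less than 500 bp. The median distance from the vehicle summit was 289 bp to the GSK 4 h summit (quartiles 210 and 404 bp) and 297 bp to the GSK 24 h summit (210 and 420 bp). Distances of at least 300 bp were found in 47.2% of the regions for GSK 4 h and in 49.4% for GSK 24 h. Distances of at least 500 bp were found in 13.4% and 15.3%. The numbers fell off steadily above the minimum with no separate group of far summits, from 1562 regions between 150 and 200 bp to 507 between 400 and 450 bp for GSK 4 h. The chosen regions are in this sense the far end of a continuous range.

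Distances of this size were as common between the GSK lists as between vehicle and GSK. Over all matched regions, 29.4% had 150 bp or more between the vehicle and GSK 4 h summits, 27.8% between the vehicle and GSK 24 h summits and 29.0% between the GSK 4 h and GSK 24 h summits. The median distances over all matched regions were 81, 75 and 81 bp in the same order. When the rule was turned around, the GSK 4 h summit stood 150 bp or more from both others in 7796 matched regions (15.2%, Wilson 95% interval 14.9 to 15.5, counting error only). The GSK 24 h summit did so in 7054 (13.8%, 13.5 to 14.1), beside the 7326 (14.3%, 14.0 to 14.6) of the vehicle summit. Across matched regions as a whole, the vehicle list was thus not the one that stood apart most often.

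**Figure D1:**
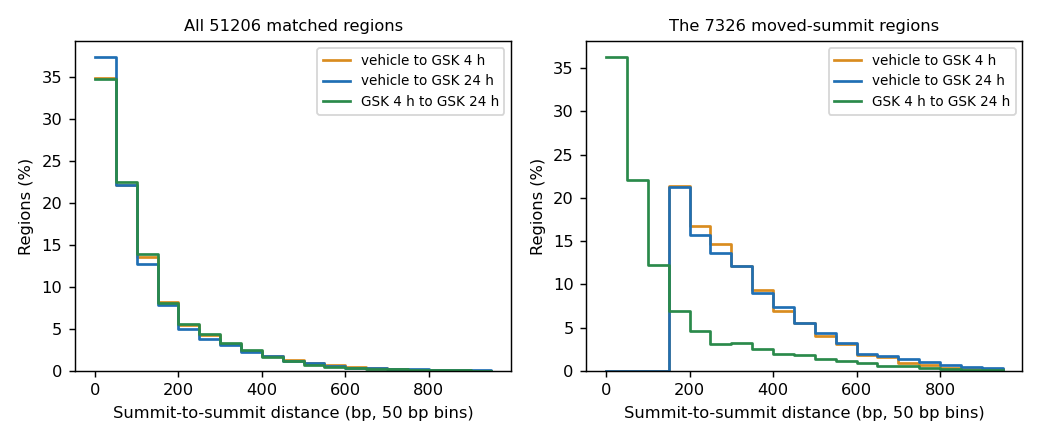
Distribution of summit-to-summit distances in 50 bp bins (x axis, bp) as a percentage of regions (y axis), for all 51206 matched regions (left) and for the 7326 regions with moved summits (right). The 3 pairs of lists nearly coincide on the left, with medians of 75 to 81 bp; on the right the vehicle-to-GSK distances begin at 150 bp by the rule, and the GSK 4 h to GSK 24 h distance, which the rule did not use, has a median of 78 bp.

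The distance between the GSK 4 h and GSK 24 h summits was not part of the rule. In the chosen regions its median was 78 bp (quartiles 32 and 178 bp), close to the 81 bp of all matched regions. The GSK summits lay within 50 bp of each other in 2700 chosen regions (36.9%, interval 35.8 to 38.0) and within 10 bp in 655 (8.94%). Over all matched regions these shares were 35.2% and 8.52%. The GSK summits therefore met about as closely in the chosen regions as over all matched regions, which had shorter vehicle records (median 546 bp against 762.5 bp). Over all matched regions the median distance between the GSK summits rose with vehicle record length. It was 72 bp for records under 400 bp and 114 bp for those from 1000 bp to under 1500 bp, so the comparison is not one at like length. Where the GSK 4 h summit stood apart, the vehicle and GSK 24 h summits lay within 50 bp of each other in 40.1%, and where the GSK 24 h summit stood apart, the vehicle and GSK 4 h summits did so in 35.8%. In 2155 chosen regions (29.4%) all 3 summits were 150 bp or more from each other, which leaves 5171 with a vehicle summit on one place and GSK summits closer together on another.

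The position of the whole record was also compared. The midpoint of the vehicle record was a median of 101 bp from that of the GSK 4 h record and 104.5 bp from that of the GSK 24 h record, against 60 and 58.5 bp over all matched regions. In 53.9% of the chosen regions each of the 3 summits lay inside all 3 records, so that the summit changed place on ground that was marked in every condition. The vehicle summit fell outside both GSK records in 760 regions (10.4%), and both GSK summits fell inside the vehicle record in 73.1%. The vehicle summit sat in the central 40% of its record in 55.6% of the chosen regions, the GSK 4 h summit in 65.2% and the GSK 24 h summit in 64.1%. Over all matched regions these shares were 75.1%, 72.8% and 73.6%. With the rule turned around, the summit that stood apart was likewise the least central, at 56.9% for GSK 4 h and 53.2% for GSK 24 h, so this goes with the way the regions were picked.

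With the 150 bp minimum, chosen regions were longer than other matched regions. Their median record length was 762.5 bp (vehicle), 809 bp (GSK 4 h) and 792 bp (GSK 24 h), against 546, 613 and 641 bp over all matched regions. In matched regions with fixed summits, defined here as a vehicle summit under 50 bp from both GSK summits (8889 regions), the medians were 475, 518 and 566 bp. The share of matched regions that were chosen was 8.73% for vehicle records under 400 bp, 9.09% from 400 bp to under 600 bp, 14.7% from there to under 800 bp, 19.4% to under 1000 bp and 32.2% from 1000 bp to the limit of 1500 bp. A longer record has more room for a distance, and the shares for a GSK 4 h summit standing apart also climbed with length, from 10.8% to 26.2%. When the distance had to be 25% of the vehicle record length in place of 150 bp, the order was reversed. The median vehicle record of the regions chosen that way was 424 bp, against 546 bp over all matched regions. In the longest class the vehicle summit stood apart more often than either GSK summit (32.2% against 26.2% and 25.9%), and in the class under 400 bp less often (8.73% against 10.8% and 9.78%).

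The height of the vehicle summit divided the chosen regions more sharply than their length did. Height is given here as the pileup over the lowest background of its list, a genome-wide value that follows the list's depth. Heights in the GSK 4 h list rest on shorter fragments and are less comparable. The classes of height were chosen after the values had been seen. For vehicle heights under 32, at most 14.5% of matched regions were chosen in any class. The share was 19.6% (18.4 to 20.8) for heights of 32 to 64, 45.9% (43.7 to 48.1) for heights of 64 to 128 and 34.2% (31.6 to 36.9) for heights of 128 and over. In the class from 64 to 128 the GSK 4 h summit stood apart in 19.6% and the GSK 24 h summit in 28.8%, both less often than the vehicle summit. At heights of 128 and over, the GSK 24 h summit stood apart in 32.7%, and its interval overlapped that of the vehicle summit.

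**Figure D2:**
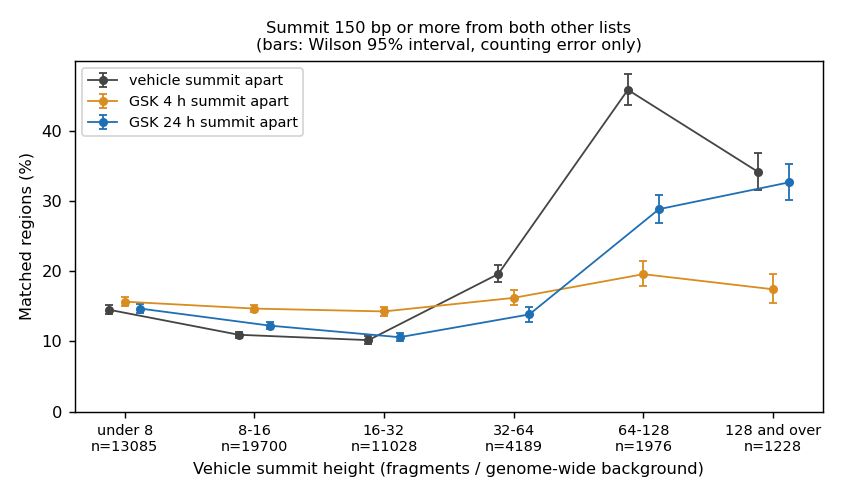
Share of matched regions (y axis, %) in which the summit of one list stood 150 bp or more from both other summits, by height of the vehicle summit (x axis, fragments divided by genome-wide background, with the number of regions per class). Points are shares and bars Wilson 95% intervals for counting error only; the 3 lists lie at or under 15.7% below a height of 32, and the vehicle list reaches 45.9% between 64 and 128.

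This held within classes of record length for heights from 64 to 128. For vehicle records of 1000 bp or more, 61.1% (57.9 to 64.2) of matched regions with such a vehicle height were chosen, against 26.6% for heights under 16. For records of 600 bp to under 1000 bp the shares were 33.8% and 17.9%, and for records under 600 bp they were 27.3% and 9.73%. It held less well for heights of 128 and over, with 40.6%, 21.4% (17.5 to 25.7) and 0 of 11 regions chosen in the same order of length. At 600 bp to under 1000 bp the GSK 24 h summit stood apart in 22.7% of these highest regions, about as often as the vehicle summit. For heights of 64 to 128 the median distances show the same split as the shares. In the longest records with heights of 64 to 128, the vehicle summit was a median of 234 bp from the GSK 4 h summit and 308.5 bp from the GSK 24 h summit, while the GSK summits were 108 bp from each other.

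Regions with a vehicle height of at least 64 are called strong from here on, which corresponds to a pileup of 134 fragments or more. They made up 1326 of the 7326 chosen regions (18.1%, 17.2 to 19.0) but 6.26% of all matched regions. Of the 3204 strong matched regions 41.4% (39.7 to 43.1) were chosen, while the GSK 4 h summit stood apart in 18.8% and the GSK 24 h summit in 30.3%. The median distance between the GSK summits was 81 bp in strong chosen regions and 108 bp in strong matched regions outside the rule. When strong regions were defined by the mean height of the 3 lists, 37.1% were chosen, and by the GSK 24 h height 21.1%. When the distance had to be 25% of the vehicle record length in place of 150 bp, 22.4% of the strong regions met the rule, against 17.2% of all matched regions, and at a minimum of 300 bp 17.4% did, against 4.77%. The highest pileup in the vehicle list (442) equals 2 fragment lengths, as read from the shortest record. That would be the limit for a pileup if duplicate tags had been removed, which the processing notes do not state. Very high summits may in that case be compressed. Leaving out vehicle pileups over 50% of that limit, 47.8% of the strong regions were chosen, and only 2 chosen regions came within 10% of it.

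The strong chosen regions were lower in both GSK lists than in the vehicle list. At the median, their vehicle summits had 222 fragments, their GSK 4 h summits 95 and their GSK 24 h summits 66. As heights these medians were 107, 50.5 and 33.6, and the median ratio to vehicle was 0.440 at 4 h and 0.306 at 24 h. The authors' fold enrichment, a ratio over local background, fell less, with medians of 11.5 (vehicle), 7.32 (GSK 4 h) and 6.93 (GSK 24 h). In height, GSK 4 h was below vehicle in 1321 of the 1326 regions, GSK 24 h below vehicle in 1323 and GSK 24 h below GSK 4 h in 1217. A height at least 1.5 times lower than in vehicle was found in 87.7% of them at 4 h and in 96.0% at 24 h. Strong matched regions outside the rule were lower to a like extent, with 87.0% at 4 h and 91.8% at 24 h, so the lower height was not particular to regions with moved summits. Strong regions were picked by their vehicle height, a choice that by itself favours ratios below 1.

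Most chosen regions were not strong, and their heights moved the other way. In the 6000 chosen regions with a vehicle height under 64, the median heights were 11.0 (vehicle), 14.3 (GSK 4 h) and 12.7 (GSK 24 h), with median ratios to vehicle of 1.25 and 1.13. In the fixed-summit regions the ratios were 1.19 and 1.13, and over all matched regions they were 1.19 and 1.12. The weaker regions were picked by a vehicle height under 64, a choice that by itself favours ratios above 1. A height at least 1.5 times lower than vehicle was found in 6.83% of these weaker regions at 4 h, beside 9.71% of all matched regions, and in 10.5% at 24 h, beside 10.4%. All matched regions include the strong ones, of which 87.3% and 93.5% were that much lower, so this is not a like comparison. In fixed-summit regions of any height the shares were 5.84% at 4 h and 4.87% at 24 h. With the strong regions included, the shares of the 7326 chosen regions were 21.5% and 25.9%. The latter was 14.1% when the distance was 25% of the vehicle record, 15.6% for vehicle records under 1000 bp and 44.9% for records with -log10 q from 10 up. Over all chosen regions, a height at least 1.5 times higher was found in 24.5% at 4 h, beside 24.9%, and in 14.9% at 24 h, beside 15.6%. Between the GSK lists, 24.0% were at least 1.5 times lower at 24 h than at 4 h and 5.24% were higher, beside 19.0% and 8.14% of all matched regions. These heights come from the contrasts that chose the regions and are given as a description.

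**Figure D3:**
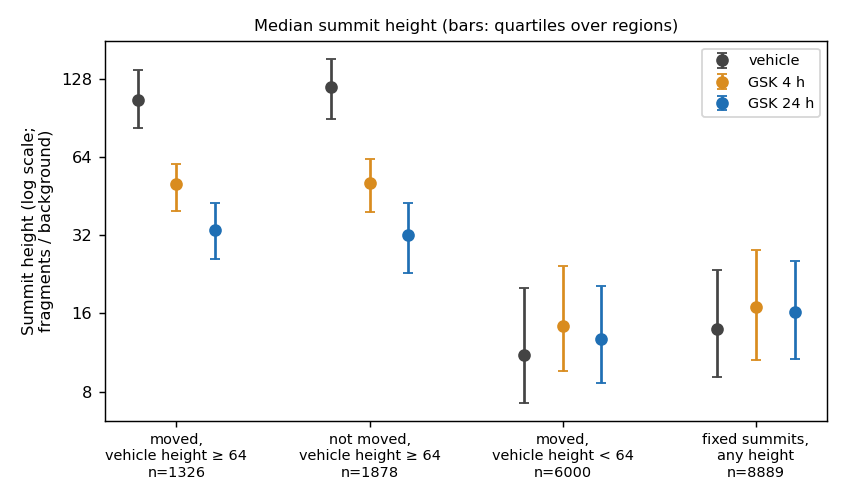
Median summit height in the vehicle, GSK 4 h and GSK 24 h lists (y axis, fragments divided by genome-wide background, log scale) for 4 sets of matched regions (x axis); bars are quartiles over regions, not replicate error. Regions with a vehicle height of at least 64 fall from 107 to 33.6 where the summit moved and span a like range where the rule was not met, whereas the weaker moved regions and the fixed-summit regions lie between 11.0 and 17.0 in every list.

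Among strong regions the share chosen differed with the change in height. Of the 77 strong matched regions whose GSK 24 h height was between 1 and 1.5 times that of vehicle, 3 were chosen (3.90%, 1.33 to 10.8) and 51.9% had fixed summits. Where the ratio was between 0.667 and 1, 38.5% (30.5 to 47.0) of 130 regions were chosen. Both classes lie within the 1.5-fold limit, and of their 207 regions 53 were chosen (25.6%). The 77 regions had short vehicle records, with a median of 564 bp against 1002 to 1139 bp in the strong classes with lower ratios, and short records were chosen less often. Of the 36 among them with a record of 600 bp or more, 2 were chosen (5.56%, 1.54 to 18.1). The share was 57.4% (50.1 to 64.3) of 183 regions between 0.5 and 0.667 and 58.0% (54.3 to 61.7) of 696 regions between 0.333 and 0.5. At ratios under 0.333 it was lower again, at 36.1% (34.1 to 38.1) of 2118 regions. For regions below a vehicle height of 64 the share was 30.4% at ratios under 0.333, 43.6% between 0.333 and 0.5, 21.4% between 0.5 and 0.667, 11.8% between 0.667 and 1, 11.1% between 1 and 1.5 and 13.6% above 1.5. Regions are not replicates, so these intervals cover counting error over regions and not the spread between cultures.

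**Figure D4:**
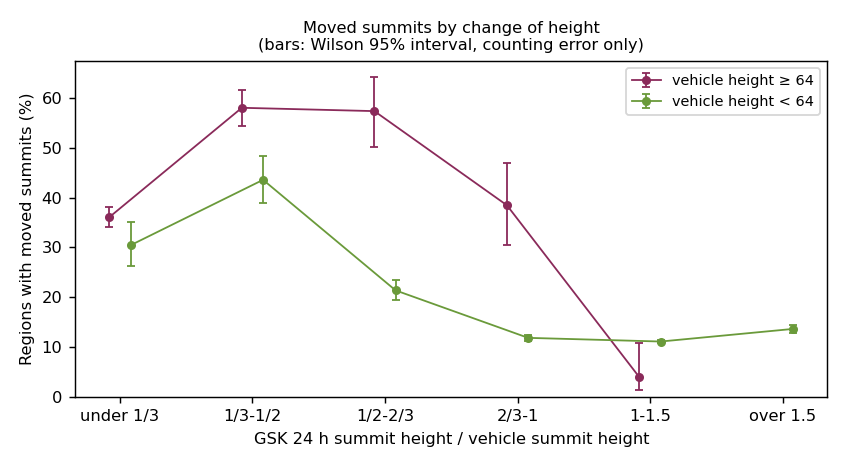
Share of matched regions with moved summits (y axis, %) by the ratio of GSK 24 h to vehicle summit height (x axis), for vehicle heights of at least 64 and below 64. Points are shares and bars Wilson 95% intervals for counting error only; the share is highest between ratios of 0.333 and 0.667 for strong regions (57.4% to 58.0%) and is 3.90% at ratios of 1 to 1.5.

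The regions were also ranked by the lowest of their 3 -log10 q-values, and the 10 that led this order show the displacement at summits with many fragments. The leading region, chr8:12458042-12459362 (hg19, outer ends of the 3 records), had 309 vehicle fragments at its summit (exact Poisson interval 276 to 345), 228 GSK 4 h fragments (199 to 260) and 169 GSK 24 h fragments (144 to 196). The vehicle summit at 12458986 was 242 bp from the GSK 4 h summit and 329 bp from the GSK 24 h summit, which were 87 bp from each other. These counting intervals are of raw pileups, not scaled by the background of each list, and give no test between the lists. As heights the 3 pileups were 148, 121 and 86.0. The records of this region share most of their length.

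The second region, on chromosome 11 from 72353076 to 72354651, had 292, 186 and 163 fragments in the vehicle, GSK 4 h and GSK 24 h lists. Its GSK summits were 19 bp apart and lay 372 and 391 bp from the vehicle summit at 72353352. The third, on chromosome 12 from 8548812 to 8549755, had 236, 160 and 129 fragments. Its summits moved by 243 and 251 bp to places only 8 bp from each other. In both regions the vehicle pileup was the highest and GSK 24 h the lowest.

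The fourth region lay on chromosome 11 from 71350107 to 71351240, with 257, 164 and 127 fragments and distances of 211 and 252 bp. On chromosome 3, the fifth (129721137 to 129722320) had 257, 161 and 130 fragments, and its GSK summits, 8 bp apart, were 199 and 207 bp from the vehicle summit. The sixth, on chromosome 10 from 51488473 to 51489931, had the farthest summits of the 10, at 600 and 636 bp from vehicle and 36 bp from each other. It was covered by 325, 152 and 158 fragments, and the heights at 4 h and 24 h were nearly equal there, at 80.8 and 80.4.

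The remaining 4 lay on chromosome 8 (12516101 to 12517342), chromosome 12 (8542344 to 8543493), chromosome 11 (3601572 to 3602856) and chromosome 2 (127976813 to 127977974). Their summits were displaced by 205 to 289 bp, with 198 to 305 vehicle, 129 to 193 GSK 4 h and 123 to 136 GSK 24 h fragments. The seventh region is on the same stretch of chromosome 8 as the first, and the eighth is next to the third on chromosome 12. All 10 had lower heights than vehicle at 4 h and at 24 h, with ratios of 0.468 to 0.869 and 0.428 to 0.728. The authors' fold enrichment, which sets a summit against its own surroundings, changed less and did not follow height at 24 h. In all of the 10 regions except that on chromosome 10, it was higher at 24 h than in vehicle. At 4 h it was above vehicle only on chromosome 11 (72353076 to 72354651 and 3601572 to 3602856) and chromosome 12 (8548812 to 8549755). On chromosome 11 from 71350107 to 71351240 it was 14.6 (vehicle), 14.5 (GSK 4 h) and 15.8 (GSK 24 h). On chromosome 10 it was 12.9, 10.6 and 11.7 in the same order.

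**Figure D5:**
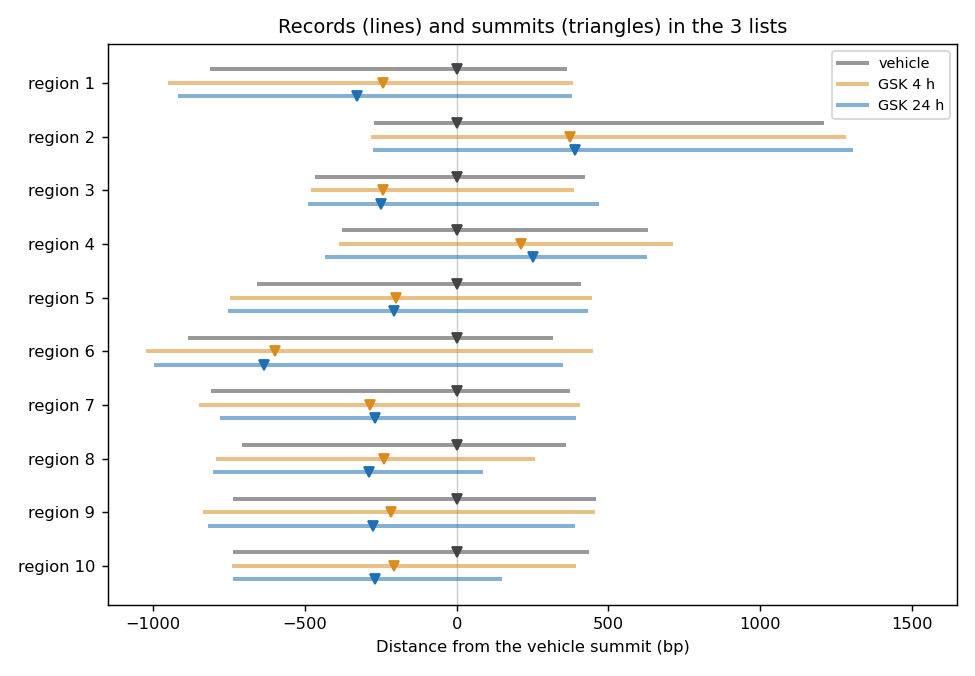
Peak records (lines) and summits (triangles) of the 10 named regions in the vehicle, GSK 4 h and GSK 24 h lists, placed by distance from the vehicle summit (x axis, bp). The records of the 3 lists largely cover the same ground, and the GSK summits lie 199 to 636 bp from the vehicle summit and 8 to 87 bp from each other.

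Among regions whose GSK summits lay within 10 bp of each other, the same order was led by the third region and the fifth region above. The next was on chromosome 12 from 50450404 to 50452094, with GSK summits 1 bp apart and 694 and 695 bp from the vehicle summit. It had 355 vehicle, 152 GSK 4 h and 151 GSK 24 h fragments. On chromosome 11, from 45825538 to 45826560, GSK summits 7 bp apart were 319 and 326 bp from vehicle, with 309, 158 and 165 fragments. On chromosome 9, from 44118004 to 44119356, GSK summits 3 bp apart were 270 and 267 bp from vehicle, with 168, 117 and 114 fragments. In these 3 regions the GSK pileups were nearly equal at the 2 times and below that of vehicle.

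Ranked by the smaller of both vehicle-to-GSK distances, the farthest displacement was found on chromosome 17 from 44269011 to 44270841, where the GSK 4 h summit was 1284 bp and the GSK 24 h summit 1441 bp from the vehicle summit. It was covered by 125 vehicle, 54 GSK 4 h and 47 GSK 24 h fragments. The next was on chromosome 20 from 44716827 to 44718668, at 1228 and 1453 bp, with 113, 44 and 32 fragments. On chromosome 12, from 53994020 to 53995684, the distances were 1150 and 1086 bp and the pileups 49, 60 and 47, so the heights there did not fall, with ratios to vehicle of 1.36 and 1.02. In the region on chromosome 17 the records overlapped only in part, while on chromosome 12 they covered nearly the same ground. On chromosome 20 the vehicle record (44718096 to 44718668) and the GSK 24 h record (44716827 to 44717546) did not overlap. They were joined only through the GSK 4 h record (44717068 to 44718137).

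Just inside the minimum, the smaller of the vehicle-to-GSK distances was 150 bp in regions on chromosome 4 (3074998 to 3075859), chromosome 12 (45444243 to 45445517) and chromosome 9 (133971331 to 133973129). Just outside, it was 149 bp on chromosome 9 (131485296 to 131486365), chromosome 6 (50817527 to 50818532) and chromosome 12 (71832847 to 71834460). Vehicle pileups were 137, 246 and 335 inside and 83, 157 and 240 outside. GSK 24 h pileups were 81, 49 and 76 inside and 87, 48 and 47 outside.

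Chosen regions were found on every autosome. Their share of the matched regions ran from 12.3% (11.1 to 13.5) on chromosome 5 to 18.8% (16.5 to 21.4) on chromosome 22, followed by chromosomes 17 (17.1%) and 19 (16.7%). Chromosomes 22, 17 and 19 also had the largest shares of strong regions, at 9.36%, 8.86% and 9.73% of their matched regions, and their vehicle records were long, with medians of 602, 626 and 677 bp. Among regions that were not strong, the share chosen was 15.9% on chromosome 22, 13.9% on chromosome 17 and 13.7% on chromosome 19, against 11.2% on chromosome 5. The order changed there, with chromosomes 21 (15.2%) and 20 (14.1%) above 17 and 19, and chromosomes 4 (11.1%) and 12 (11.0%) below 5. The part of strong summits and of record length in the order of the chromosomes was not tested.

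Chosen regions were about as close to other matched regions as the rest were, and their nearest neighbour was somewhat more often itself chosen. A matched neighbour within 5000 bp, measured between vehicle summits, was found for 28.9% of chosen regions and for 29.6% of the other matched regions. The nearest such neighbour was itself chosen in 17.4% (15.9 to 19.1) of the former and in 13.5% (12.9 to 14.1) of the latter. At up to 10000 bp these shares were 16.6% and 13.9%. Neighbouring regions can share local signal, so the intervals, which treat each region as separate, are too narrow.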

How the data were processed

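H3K4me2 ChIP-seq peak lists of LNCaP cells were used, 1 per group, each made by the authors from both samples of the group (6 samples, 3 lists). Per the labels, the submitters' processing notes name BWA 0.7.2-r351, SAMtools 0.1.18, MACS2 2.0.10.20131216 and the build hg19, without settings. The deposited values are a fold enrichment (ratio over local background), the -log10 of a p-value and of a q-value, a display score and the summit offset of each peak, none normalised between lists. Score was not analysed. Samples were grouped by the treatment label.

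Records overlapping by at least 1 bp were merged, and summits were compared as the rule in the text states. A whole-number pileup was solved from fold and p-value under a Poisson model with a pseudocount of 1, within 0.001 on the -log10 p scale. It was found for 99.998% of vehicle records (all but 2) and 100% of GSK records. On simulated data, all 19448 pileups, and 805 of 805 moved regions with 0 false ones, were returned. The simulated summits had no counting error and none lay near the minimum distance. The simulation thus checks the code only and gives no rate of false moved summits in the real lists. Wilson and exact Poisson 95% intervals cover counting error only. With 1 list per group no test was made. Named regions were the 10 whose lowest -log10 q over the lists was highest, the 5 such with GSK summits within 10 bp, the 3 with the largest smaller distance, and 3 on each side of the minimum. The members, classes and alternatives were chosen with earlier results of these data known. Python 3.11.15, pandas 2.3.3, NumPy 2.4.6 and SciPy 1.17.1 were used.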

Additional observations from a re-analysis of the deposited data

How the results depend on the processing

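No paired analysis was possible because the authors pooled the samples of a group, and no replicate was left out for the same reason. Planned values on genes, motifs and sequence were not run, for want of an hg19 genome here. Depth limits weak regions, since 34.2% of the chosen regions had fewer than 20 vehicle fragments.

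The values are given in the order number of moved-summit regions, their share of matched regions, median distance between the GSK summits, share of GSK summits within 50 bp, share of strong regions chosen, and share at least 1.5 times lower at 24 h. As reported they were 7326, 14.3%, 78 bp, 36.9%, 41.4% and 25.9%. At a minimum of 100 bp they were 12276, 24.0%, 86 bp, 35.2%, 54.6% and 20.9%. At 200 bp they were 4792, 9.36%, 70 bp, 39.5%, 31.3% and 30.0%, and at 300 bp 2440, 4.77%, 64 bp, 41.6%, 17.4% and 34.3%. For vehicle records under 1000 bp they were 5242, 11.7%, 72 bp, 39.1%, 29.5% and 15.6%, and with no limit on length 7875, 15.0%, 80 bp, 36.0%, 44.8% and 28.9%. For records with -log10 q from 5 up they came to 5599, 14.4%, 77 bp, 37.4%, 41.4% and 31.9%, and those from 10 up gave 3394, 15.7%, 77 bp, 37.1%, 41.4% and 44.9%. With 50% overlap of the shorter record they were 6167, 12.9%, 74 bp, 38.4%, 40.7% and 28.6%. Merging records within 1 kb gave 4600, 15.4%, 82 bp, 35.6%, 35.2% and 22.7%. With a distance of 25% of the vehicle record they were 8813, 17.2%, 73 bp, 39.0%, 22.4% and 14.1%. With chromosomes X and Y they were 7539, 14.3%, 78 bp, 36.8%, 41.4% and 25.9%. The causes of these shifts were not tested. Of 154 other values, 23 stayed within the interval of the reported value and 131 moved. Alternatives for the strong class were chosen after seeing the data. The share chosen was 37.1% by the mean height of the 3 lists, 29.4% by the GSK 4 h height, 21.1% by the GSK 24 h height and 47.8% without vehicle pileups over 50% of the limit.

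In strong regions the vehicle summit stood apart more often than either GSK summit in each setting that was also run with the lists turned around, from 17.4% against 5.18% (GSK 4 h) and 13.7% (GSK 24 h) at 300 bp to 54.6% against 30.2% and 40.9% at 100 bp. The margin over GSK 24 h was smallest with records within 1 kb merged, at 35.2% against 31.9%. The relative distance was not run this way. Over all matched regions, the vehicle list came first at 300 bp (2440 against 2310 and 2143) and for -log10 q from 10 up (3394 against 3333 and 2985), and GSK 4 h came first in the other settings.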
